A study of Homo sapiens with 74 samples.

Results

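Stretches of open chromatin are described here in HAP1, a near-haploid human cell line derived from a chronic myeloid leukaemia. The regions had lower accessibility in an ARID2 knockout clone than in wild type, and little or no drop in ARID1A knockout clones. They were chosen from measured values of the knockout table: autosomal regions with a mean of at least 2 CPM (reads per 1000000 counted reads) in wild-type replicates 1 and 2, a mean log2(CPM + 0.5) at least 1 lower in the ARID2 knockout than in that wild type, and a mean in the ARID1A knockout that was no more than 0.3 below it. Of 138795 autosomal regions, 112839 reached the wild-type level, 2065 of these met the ARID2 limit and 469 met all limits, which is 0.416% of the eligible regions. For comparison, 698 eligible regions were at least 1 lower in both knockouts and 3938 were at least 1 lower without ARID1A while ARID2 stayed above the 0.3 limit.

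The study measured accessibility by ATAC-seq, which marks open DNA by where a transposase inserts adapters, after removing single subunits of the BAF (SWI/SNF) chromatin remodelling complexes. All cells were HAP1, wild-type cells are labelled C631, and every clone carried a knockout of 1 gene. The rule used wild-type replicates 1 and 2, ARID2 clone 9 (2 libraries) and ARID1A clones 3 and 10 (2 libraries each). Knockouts outside the rule were PBRM1 clone 10, BRD7 clone 10, PHF10 clone 11, SMARCD2 clone 10 and SMARCA4 clones 4 and 6, with 2 libraries per clone. They were set against a panel of 14 other clones that lacked ACTB, ARID1B, BCL11A, BCL11B, BCL7A, BCL7B, BRD9, DPF1, DPF2, DPF3, SMARCA2, SMARCC1, SMARCD1 or SMARCD3, also with 2 libraries each. The panel is not wild type: each of its clones lacks a BAF gene. A second table held wild-type cells with a control, ARID2, SMARCA4 or double knockdown, ARID2 knockout cells with a control or SMARCA4 knockdown, and SMARCA4 knockout cells with a control or ARID2 knockdown, with 2 libraries per group. The labels do not give the clones of the ARID2 and SMARCA4 knockout cells in that table. Most genes had 1 clone, so the loss of the gene and other changes of that clone cannot be told apart. Nothing says that the replicates are separate cultures, so p-values measure the spread between libraries, which may be technical.

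ARID2 and ARID1A are large AT-rich interaction domain proteins that belong to different forms of the complex. ARID1A, or its paralog ARID1B, defines canonical BAF, whereas ARID2 defines PBAF, together with PBRM1, a protein of many bromodomains, the bromodomain protein BRD7 and the plant homeodomain finger protein PHF10. Both forms share the ATPases SMARCA4 or SMARCA2 and 1 of the paralogs SMARCD1, SMARCD2 and SMARCD3. The comparisons below ask how regions chosen for a lower value in the ARID2 clone stand when the partners of ARID2 or the shared subunits are gone.

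The labels name no sets, but the knockout libraries fall into a main set and a smaller second set, with wild-type replicates 5 and 6, by the form of their titles and their place in the listing. Total counts were 7855389 to 12422345 per library in the main set, 5085811 to 7331537 in the second set, and 5355899 to 12432292 in the knockdown libraries. The median member had 18 to 60 counts in a library of the main set and 17 to 62 in the knockdown table. Replicates of a group differed by more than sampling noise in all 36 pairs (mean chi-square per region 1.98 to 6.72). All 469 members passed the low-count filter in every comparison. The removal of the genes themselves cannot be read from accessibility and was not checked.

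By choice, the ARID2 difference of the members ran from -3.49 to -1.0006 with a median of -1.16 on the log2(CPM + 0.5) scale, and the ARID1A difference from -0.299 to 1.496 with a median of -0.02. Most members lay near the ARID2 limit: 316 were less than 1.25 below wild type, 56 were at least 1.5 below and 10 at least 2 below. In 32 members accessibility without ARID1A was at least 0.5 above wild type. The median member had 5.35 and 5.42 CPM in wild-type replicates 1 and 2 and 1.86 and 2.27 CPM in the 2 ARID2 libraries. Regions are named by their hg19 coordinates. Just inside the ARID2 limit were chr7:140234717-140235218 and chr10:45868433-45870077 at -1.0006 and -1.0018, and just outside were chr5:95769668-95770439 and chr2:98765603-98766228 at -0.9995 and -0.9993. Just inside the ARID1A limit were chr3:72149805-72150507 and chr2:137209429-137210210 at -0.2989 and -0.2982, and just outside were chr9:85408448-85408953 and chr3:189022033-189022966 at -0.3001 and -0.3007. The limits thus cut a continuous range of values. With wild-type replicates 1, 2, 5 and 6 as the reference the rule chose 500 regions, of which 246 were members, and without ARID2 replicate 2 it chose 1830, of which 387 were members.

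**Figure D1:**
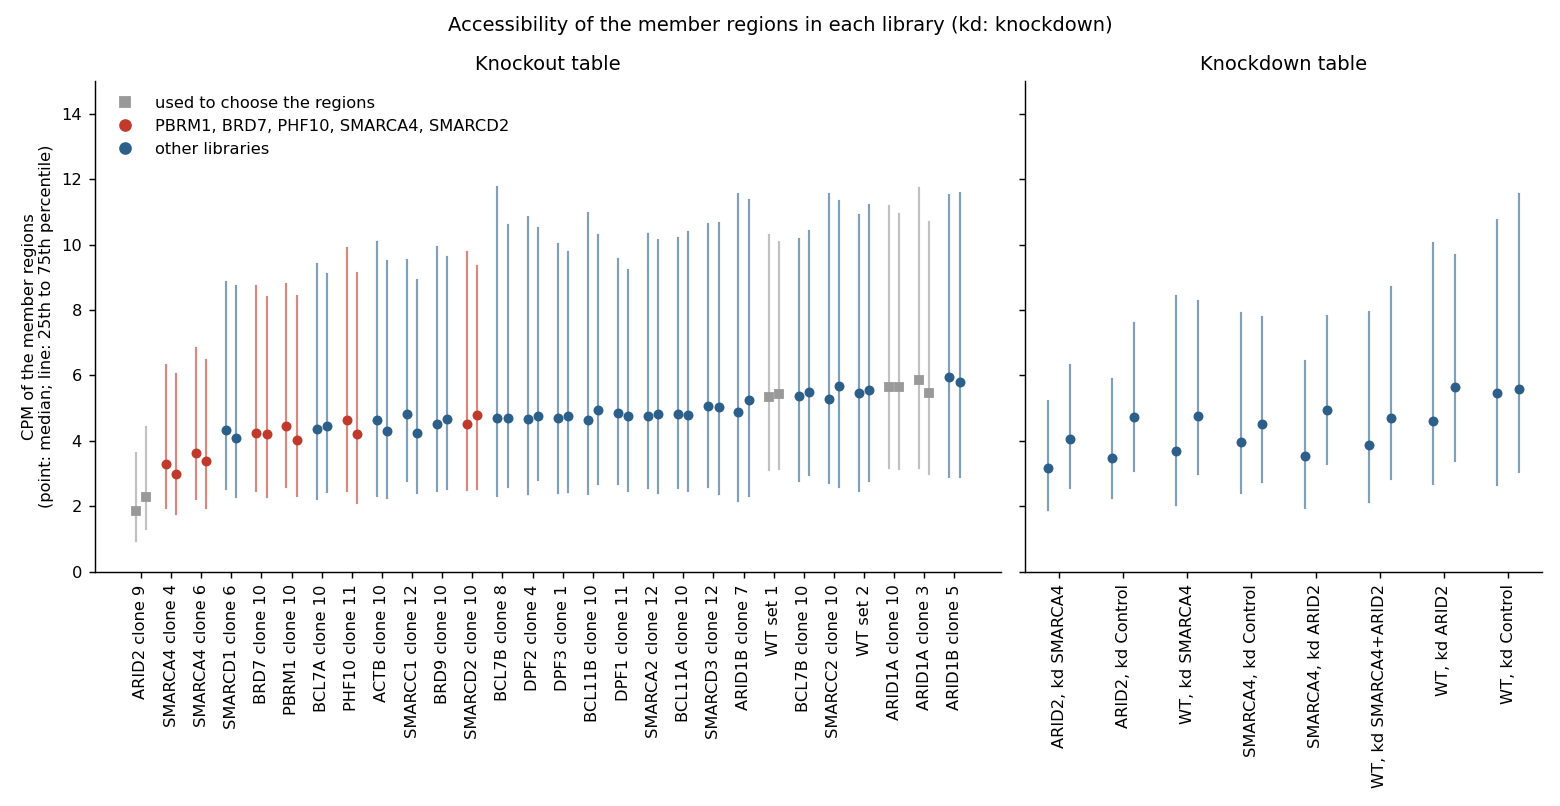
Accessibility of the 469 member regions in each library, in CPM, with the knockout table on the left and the knockdown table (kd, knockdown) on the right. Points are medians over the members and lines run from the 25th to the 75th percentile. Among the libraries that did not enter the rule, the 4 SMARCA4 libraries were lowest in the knockout table, with medians of 2.98 to 3.64 CPM. They were also the lowest of these over all eligible regions, with medians of 3.49 to 3.76 CPM.

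The 6 members with the lowest ARID2 values show what the rule selected, as a description. At chr2:205911874-205912636 wild-type replicates 1 and 2 held 7.87 and 6.55 CPM and the ARID2 libraries 0 and 0.432. At chr21:22033472-22035322 the wild-type libraries held 26.8 and 23.2 CPM, the ARID2 libraries 1.76 and 3.67, and the ARID1A libraries 26.8 and 18.9 in clone 3 and 15.2 and 21.9 in clone 10. At chr2:219725484-219726116 the same groups held 21.7 and 19.4 in wild type, 3.62 and 4 without ARID2, and 23.2 and 22.1 and 20.1 and 21.2 without ARID1A. In these 3 regions both ARID2 libraries lay below every wild-type and ARID1A library. The other members of this group were chr7:147804404-147805344 (-2.27), chr18:74277021-74277662 (-2.27) and chr19:58175497-58176121 (-2.26, the ARID2 difference of the rule). At the last of them the ARID2 libraries differed, with 0.207 and 1.73 CPM.

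The ARID2 loss was then read in the knockdown table, none of whose libraries entered the rule. The median member held 5.46 and 5.58 CPM in the wild-type libraries with control knockdown and 3.46 and 4.71 CPM in the ARID2 knockout libraries with control knockdown, so both ARID2 libraries were below both wild-type libraries. The median over all 112839 eligible regions was 3.96 and 4.31 CPM in wild type and 4.52 and 5.26 CPM in the ARID2 knockout, in the opposite order. Of the 469 members, 64 were called lower in the ARID2 knockout and 0 higher, where called means an adjusted p of at most 0.05 in edgeR's quasi-likelihood test over all 145617 regions. This is 13.6% of the members, against 0.374% of all regions called lower and 0.0446% called higher. The median log2 fold change of the members was -0.69 and that of all regions was 0.001. In the 698 regions lost without both ARID2 and ARID1A, 20.2% were called lower, with a median of -0.91. In those lost without ARID1A only the share was 0.203%. Fitted changes were below 0 in 377 members (80.4%, against 53.3% of the eligible regions), and 203 had an unadjusted p under 0.05 (43.3%, against 10.9%). Both ARID2 libraries lay below both wild-type libraries in 236 members, or 50.3%, as in 17.3% of the eligible regions. The count of 64 rested on all 4 libraries: it was 10 without ARID2 replicate 1, 23 when ARID2 replicate 2 was left out, and 23 and 20 when wild-type replicate 1 or 2 was.

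The counts varied with the size of the drop in the rule. Of the 56 members at least 1.5 below wild type in the knockout table, 27 were called lower in the knockdown table, with a median log2 fold change of -1.45. Of the 316 members less than 1.25 below, 21 were called, with a median of -0.54. The level of the region moved with this as well. Of the 134 members with at least 10 CPM in wild-type replicates 5 and 6, which did not enter the rule, 55 were called lower, with a median of -1.27. Of the 148 members at 4 to 10 CPM, 9 were called, with a median of -0.75. Of the 187 members under 4 CPM, 0 were called and the median was -0.09. Differences between these classes were not tested. The share called among all eligible regions of the same level is not given here. These counts therefore do not separate a trait of the members from one of level.

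**Figure D2:**
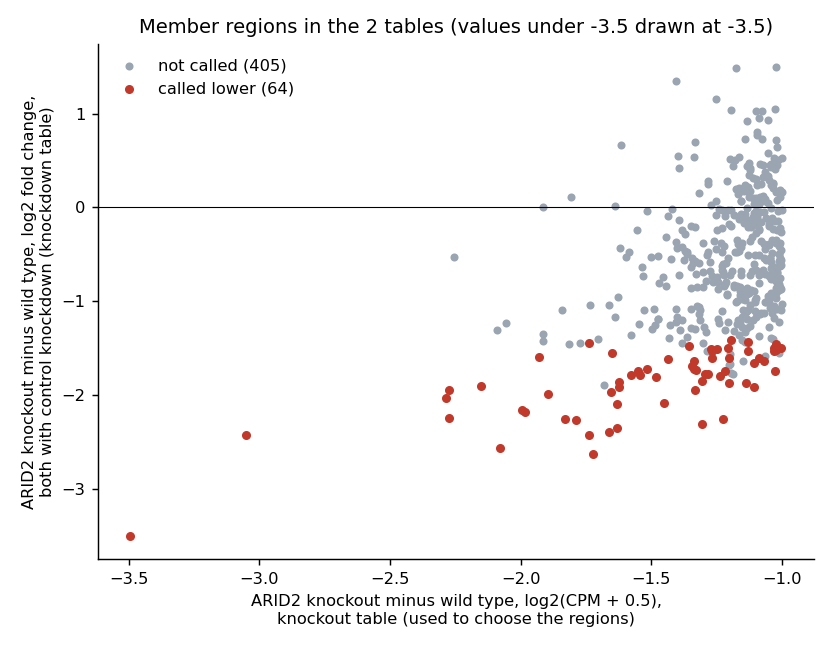
Each point is 1 member region. The horizontal axis is the ARID2 minus wild-type difference that chose the regions, in log2(CPM + 0.5), and the vertical axis is the log2 fold change of ARID2 knockout against wild type, both with control knockdown, in libraries that did not choose them. The 64 regions called lower lie at the bottom, and 92 of the 469 points lie at or above 0.

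The 8 lowest fitted changes among called members whose groups did not overlap are the extremes of this comparison, and their lack of overlap was part of how they were chosen. At chr2:13712455-13713487 the wild-type libraries with control knockdown held 16.1 and 18.6 CPM and the ARID2 knockout libraries 3.76 and 2.54. The log2 fold change was -2.63 (adjusted p = 1.4e-05, SE 0.38) by edgeR. At chr7:146572090-146572998 the wild-type libraries held 17.8 and 24.2 CPM and the ARID2 libraries 4.22 and 3.81, a log2 fold change of -2.57 (adjusted p = 5.34e-05, SE 0.39). At chr5:148205208-148206374, 1 of the more open members, accessibility was 43.2 and 52.1 CPM in wild type and 9.04 and 11.4 CPM without ARID2, a change of -2.43 with an adjusted p of 0.000204 by edgeR. Accessibility at chr21:22033472-22035322 was 32.9 and 37 CPM in wild type and 7.83 and 7.07 CPM without ARID2, a change of -2.42 (adjusted p = 0.000501, edgeR). In each of these 4 regions the lower wild-type library held more than 3 times the CPM of the higher ARID2 library. The members chr7:145812718-145814295, chr12:116796677-116797298 and chr18:37586482-37587187 fell by 2.40, 2.35 and 2.30 on the log2 scale. The median over all 469 members was -0.69, and 92 members were at or above 0.

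The region chr2:205911874-205912636 had no read in either ARID2 knockout library with control knockdown, against 6.52 and 6.08 CPM in wild type. With 3 counts over the group as the floor, this is at least 25.7-fold lower in the ARID2 knockout. It also had 0 CPM in both ARID2 knockout libraries with SMARCA4 knockdown. The nearest region on its right, 12177 base pairs away, held 13.4 CPM without ARID2 and 15.2 CPM in wild-type replicates 1 and 2, and the nearest on its left, 64353 base pairs away, held 3.88 and 3.74 CPM. In the knockdown table the right neighbour held 12.95 CPM in the ARID2 knockout and 21.3 CPM in wild type, and the left 4.16 and 3 CPM. In the SMARCA2 clone of the panel the mean was 0.121 CPM at this region and 0.161 CPM at its right neighbour. Whether DNA was lost in either clone was not tested.

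PBRM1, BRD7 and PHF10, the other PBAF subunits, were set against the panel in a fit that left out every library of the rule. Without PBRM1, 72 of the 469 members were called lower and 19 higher. These are 15.4% and 4.05% of the members, against 1.48% of all 145529 regions called lower and 1.74% called higher. Without BRD7, 65 members were called lower and 21 higher (13.9% and 4.48%), against 1.66% and 3.18% of all regions. Without PHF10, 36 were called lower and 16 higher (7.68% and 3.41%), against 1.42% and 1.65% of all regions. The median log2 fold change of the members was -0.13 without PBRM1, -0.11 without BRD7 and -0.04 without PHF10, and that of all regions was between 0.01 and 0.03. Most members were therefore not called in any of these knockouts: 114 (24.3%) were called lower in at least 1 of them, against 3.85% of all regions, and 8 (1.71%) in all 3, against 0.0845%. The 3 comparisons share the panel. In the 698 regions lost without both ARID2 and ARID1A, larger shares were called lower: 18.5% without PBRM1, 19.2% without BRD7 and 16.9% without PHF10. In the 3938 regions lost without ARID1A only, the shares were 1.42%, 3.33% and 2.54%. Differences between these sets of regions were not tested. Of the members with at least 10 CPM in wild-type replicates 5 and 6, 33.6% were called lower without PBRM1, 35.8% without BRD7 and 19.4% without PHF10. Of the members under 4 CPM the shares were 2.67%, 1.07% and 1.07%. The shares among all regions of the same level are not given here, so these counts do not separate a trait of the members from one of level.

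These counts hold the spread within a clone and not between clones. With the clone as the unit, 1 member was called lower without PBRM1 and 0 without BRD7 or PHF10. When the 3 clones were taken as replicates of a PBAF knockout and set against the 14 panel clones, edgeR called 0 members in either direction. In that test 81 members had an unadjusted p under 0.05 (17.3%, against 7.84% of the eligible regions), 311 fitted changes were below 0 (66.3%, against 52.8%), the median was -0.14, and DESeq2 called 11 members lower. Over all 145533 regions 0% were called lower and 0.00481% higher. The counts against the panel also rested on both libraries of the clone. The PBRM1 count of lower members was 33 without its replicate 1 and 25 without replicate 2, the BRD7 count 41 and 22, and the PHF10 count 9 and 14. The higher members numbered 7 and 4 for PBRM1, 12 and 8 for BRD7, and 4 and 4 for PHF10.

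The largest drops without PBRM1 were at a pair of neighbouring members on chromosome 21 and at a member on chromosome 9. At chr21:16400311-16401015 the PBRM1 libraries held 0.62 and 0.401 CPM, and the means of the panel clones ran from 1.17 to 9.39 CPM with a median of 4.49. The log2 fold change was -2.94 (adjusted p = 4.81e-08, SE 0.41) by edgeR. At chr21:16288723-16289543 the PBRM1 libraries held 0.723 and 0.401 CPM against panel means of 1.24 to 10.3 CPM with a median of 3.69, and at chr9:100807496-100808252 they held 1.45 and 1.2 CPM against 2.6 to 12.1 CPM with a median of 7.99. The changes were -2.78 and -2.49. In all 3 regions both PBRM1 libraries were below the mean of each panel clone. BRD7 loss left them at 6.36 and 4.11, 6.01 and 4.2 and 5.66 and 8.22 CPM, and none was called lower without BRD7. The direct test of PBRM1 against BRD7 knockout called all 3 lower without PBRM1, by -3.35, -3.18 and -2.43 on the log2 scale.

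Without BRD7 the lowest values were on chromosomes 6, 18 and 3. At chr6:129203596-129204833 the BRD7 libraries held 4.6 and 6.03 CPM and the panel clones 12.3 to 30.6 CPM with a median of 23.7, a log2 fold change of -2.11 (adjusted p = 2.04e-18, SE 0.19) by edgeR. This member was also called lower without PBRM1, at 7.02 and 8.92 CPM, and in the ARID2 knockout of the knockdown table, at 5.87 and 4.71 CPM against 15.5 and 18.3 in wild type. The SMARCA4 clones held 22.3 and 25.8 and 17.3 and 23.9 CPM there and the PHF10 clone 30.5 and 29.6, and neither comparison was called. At chr18:42260104-42261126 BRD7 loss gave 2.83 and 2.65 CPM against panel means of 3.82 to 17.2 CPM with a median of 11.7, and at chr3:6462910-6464071 it gave 2.36 and 2.01 CPM against 2.76 to 27.8 CPM with a median of 9.97. The second of these regions varied widely within the panel, and its wild-type libraries held 5.93 and 8.45 CPM in replicates 1 and 2 and 18.3 and 21.4 in replicates 5 and 6.

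PHF10 loss had its lowest values at chr4:111544093-111544677, chr3:67918227-67919020 and chr12:91281625-91282586, with log2 fold changes of -1.85, -1.66 and -1.65. At the first the PHF10 libraries held 3.16 and 2.66 CPM and the PBRM1 libraries 3.51 and 2.3, whereas the BRD7 libraries held 24.3 and 25.3 and wild-type replicates 1 and 2 17.6 and 16.3. The panel clones spanned 2.67 to 57.3 CPM with a median of 14.1 at this region, so the lowest panel clone was as low as the PHF10 and PBRM1 clones. At the other 2 members both PHF10 libraries were below the lowest panel mean.

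The subunits of PBAF did not all move together at single members. PBRM1 and BRD7 knockout differed at 31 members by the direct test, 21 lower and 10 higher without PBRM1 (4.48% and 2.13%), against 0.476% and 0.276% of all regions. The higher count was 7 and 2 without BRD7 replicate 1 or 2, and 5 and 6 without PBRM1 replicate 1 or 2. At chr21:22033472-22035322, the second lowest member without ARID2, the BRD7 libraries held 2.59 and 3.38 CPM and the PHF10 libraries 3.56 and 5.73. The PBRM1 libraries held 24.9 and 26.4 CPM, as high as wild-type replicates 1 and 2, and the difference from BRD7 was 3.05 (adjusted p = 1.76e-18, SE 0.26) by edgeR. Panel clones ranged from 2.25 to 43.4 CPM with a median of 12.9 there, and against wild-type replicates 5 and 6 the PBRM1 change was -0.61 instead of 1.22. At chr3:68981452-68982081 accessibility was 3.41 and 2 CPM without PBRM1, 22.4 and 18.6 without BRD7 and 23 and 22.4 without PHF10, against 6.22 and 6.05 in wild-type replicates 1 and 2. Loss of PBRM1 was called lower and loss of BRD7 or PHF10 higher at this member. Panel clones ranged from 2.08 to 23.5 CPM with a median of 5.24 there, a range that holds the BRD7 and PHF10 values. The ARID1A clones also differed from each other, at 6.48 and 7.06 CPM in clone 3 and 25 and 25.2 in clone 10. At chr5:16178763-16179395 PHF10 loss alone of these 3 was called, at 8.5 and 7.59 CPM against 3.1 and 3.61 without PBRM1, with a log2 fold change of 1.36 (adjusted p = 1.47e-05, SE 0.23) against the panel by edgeR. Both libraries were above every panel mean, the highest of which was 4.33 CPM.

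**Figure D3:**
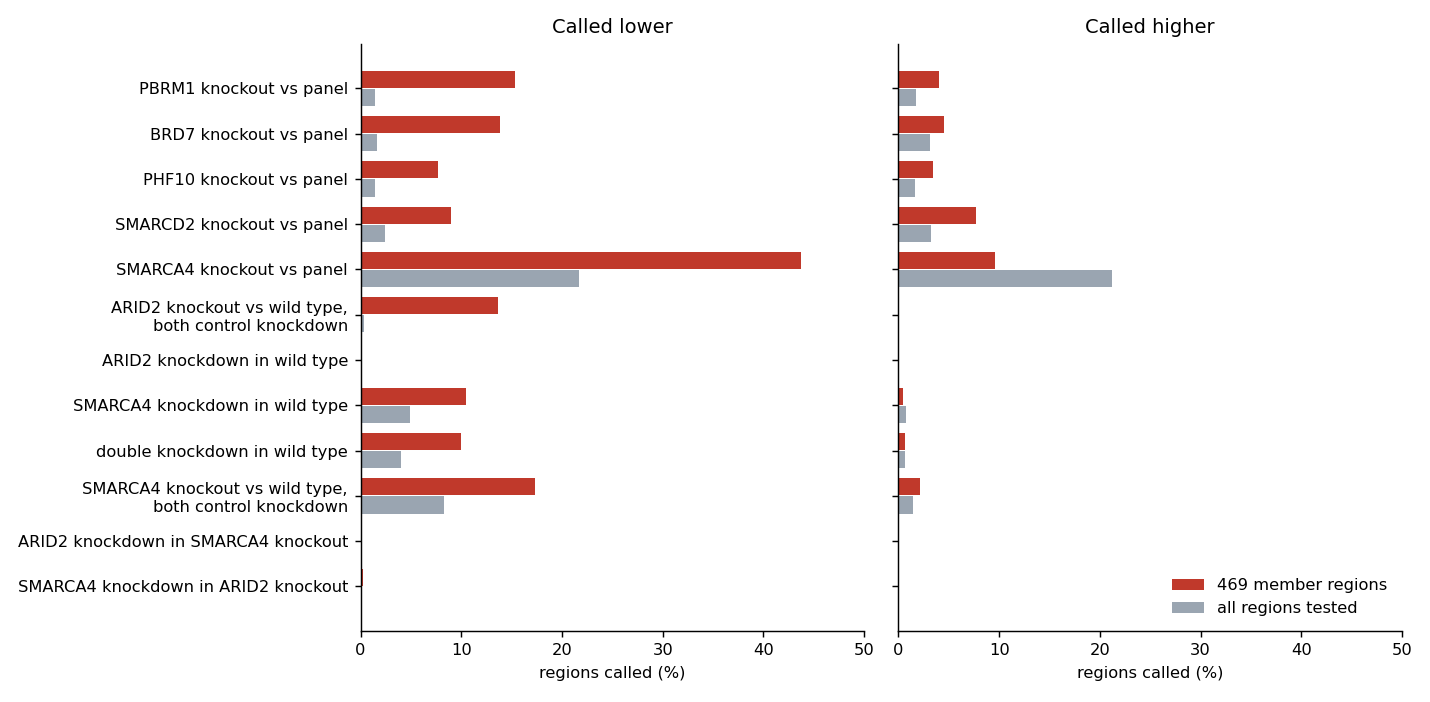
Percentage of regions called lower (left) and higher (right) in each comparison, for the 469 members (red) and for all regions tested (grey), by edgeR at an adjusted p of at most 0.05. The members' bar without SMARCA4 reaches 43.7% lower against 21.6% of all regions, and the ARID2 knockout with control knockdown 13.6% against 0.374%.

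Loss of SMARCA4, the ATPase that PBAF shares with canonical BAF, lowered more members by count than loss of any of the other 4 subunits tested against the panel, and more of all regions as well. It had 4 libraries of 2 clones, where the others had 2 libraries of 1 clone. The SMARCA4 libraries had a median member level of 3.28 and 2.98 CPM in clone 4 and 3.64 and 3.395 CPM in clone 6, below all 28 panel libraries (4.08 to 5.24 CPM). Of the 469 members, 205 were called lower and 45 higher (43.7% and 9.59%), against 21.6% and 21.2% of all regions. The median log2 fold change was -0.36, against 0.07 over all regions. With the clone as the unit 144 were called lower and 8 higher. In the regions lost without both ARID2 and ARID1A, 587 of 698 (84.1%) were called lower, with a median of -1.37. In those lost without ARID1A only, 81.2% of 3938 were lower, with a median of -1.08. The differences between these 3 sets of regions were not tested. Of the members with at least 10 CPM in wild-type replicates 5 and 6, 68.7% were called lower, and of those under 4 CPM 15.5%. The share among all regions of the same level is not given here.

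The deepest loss was at chr14:26573680-26574424. The SMARCA4 libraries held 0.486 and 0.205 CPM in clone 4 and 0.772 and 1.95 in clone 6, and the panel means ran from 3.53 to 12.5 CPM with a median of 9.06. All 4 libraries were below every panel mean, and the log2 fold change was -3.40 (adjusted p = 2.26e-26, SE 0.25) by edgeR. PBRM1 and BRD7 loss lowered this member as well, to 2.69 and 2.3 and 3.18 and 2.28 CPM. At chr7:147804404-147805344 the SMARCA4 libraries held 2.06 and 3.7 and 2.54 and 1.75 CPM against panel means of 4.68 to 31.1 CPM with a median of 19.4, a change of -2.69. At chr13:88318934-88319621 they held 1.94 and 2.36 in clone 4 and 0.772 and 0.103 in clone 6, a change of -2.61. The panel means ran from 0.999 to 11.9 CPM with a median of 7.4 there, so both clone 4 libraries were above the lowest panel mean.

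The 45 members called higher without SMARCA4 were fewer, by share, than all regions called higher. The count was 29 to 34 without any 1 of the 4 SMARCA4 libraries and 8 with the clone as the unit. It was 14 against wild-type replicates 1 and 2, whose values helped to choose the members, and 27 against replicates 5 and 6, which did not enter the rule. Replicates 5 and 6 belong to the second set and the SMARCA4 clones to the main set. The shares of all regions against these references are not given here. At chr17:41437826-41439306 the SMARCA4 libraries held 34.7 and 37.7 CPM in clone 4 and 26.6 and 29 in clone 6, wild-type replicates 1 and 2 held 8.07 and 10.6, and the ARID2 libraries 3 and 5.4. Against the panel, whose means ran from 1.64 to 29.1 CPM with a median of 3.81, the log2 fold change was 2.76 (adjusted p = 1.19e-53, SE 0.11) by edgeR. BRD7 loss raised it to 21.1 and 21 CPM and SMARCD2 loss to 15.6 and 15 CPM. The ARID1A libraries, which the rule used, held 27.4 and 30.3 CPM in clone 3 and 23.8 and 26.9 in clone 10, the highest ARID1A difference of all members. At chr21:16288723-16289543 SMARCA4 loss gave 13.2 and 16.5 and 19.95 and 23.6 CPM, a change of 2.32, whereas PBRM1 loss, as given above, gave less than 1 CPM. SMARCA4 clones did not always move together: at chr4:111544093-111544677 clone 4 held 42 and 49.1 CPM and clone 6 6.17 and 7.1, so that the fitted change of 0.79 describes neither clone.

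Members called lower and members called higher without SMARCA4 both had negative medians in the ARID2 knockout of the knockdown table, which shares no library with the SMARCA4 comparison. The 205 members called lower without SMARCA4 had a median log2 fold change of -1.03 in the ARID2 knockout, with 46 called lower. The 45 members called higher had a median of -0.84, with 7 called lower. The 219 members not called had a median of -0.26, with 11 called lower. These classes differed in level, with median wild-type accessibility of 9.18, 4.91 and 3.10 CPM in replicates 5 and 6 for the lower, higher and uncalled members, and the part of level in the differences was not tested. Among members called lower without ARID2 in the knockdown table, those with the highest SMARCA4 values against the panel were chr21:22033472-22035322, chr4:111544093-111544677 and chr21:16436175-16438483. The first held 23.8 and 29.97 and 20.7 and 35.3 CPM in the SMARCA4 clones, around the 26.8 and 23.2 CPM of wild-type replicates 1 and 2. Against replicates 5 and 6 the changes at the first and second were -0.379 and -0.112, the opposite sign. At the second, SMARCA4 knockout cells with control knockdown held 6.7 and 5.6 CPM against 19.9 and 25.2 in wild type. It was called lower in that comparison, with a log2 fold change of -1.92 (adjusted p = 8.03e-05, SE 0.37) by edgeR. At the last, the widest of them, the ARID2 knockout libraries held 8.73 and 10.5 CPM and wild type 28.6 and 26.1, a change of -1.72 (adjusted p = 0.0156, SE 0.39) by edgeR. The SMARCA4 clones held 39.5 and 40.3 and 50.9 and 46 CPM there, above the panel median of 31, and PBRM1 loss left 9.92 and 7.01 CPM.

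**Figure D4:**
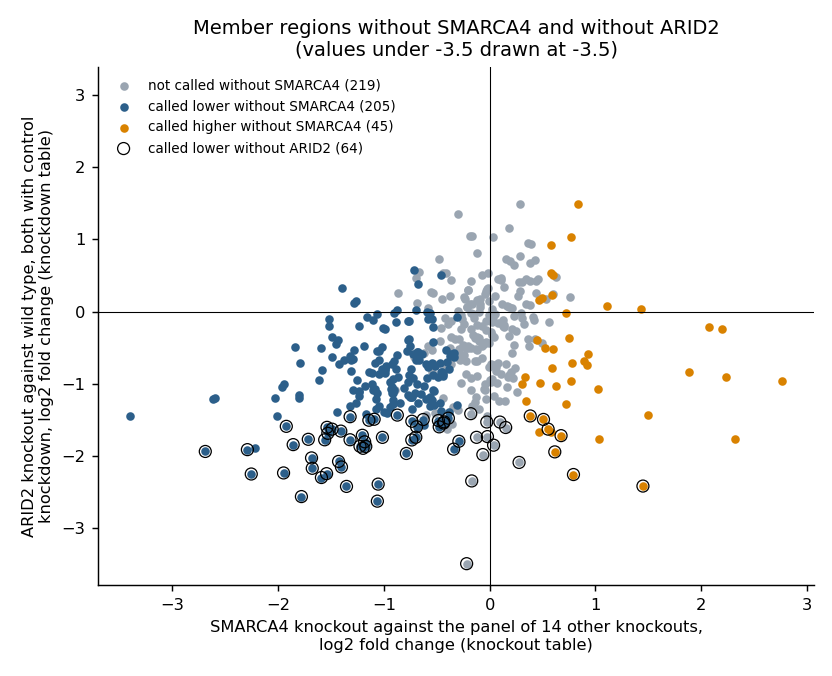
Each point is 1 member region, with the log2 fold change of SMARCA4 knockout against the panel on the horizontal axis and that of ARID2 knockout against wild type, both with control knockdown, on the vertical axis. Blue points (205) were called lower and orange points (45) higher without SMARCA4, and black rings mark the 64 members called lower without ARID2, of which 46 are blue and 7 orange.

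SMARCD2 is 1 of 3 paralogs of which each complex holds a single copy. Without SMARCD2, 42 members were called lower and 36 higher (8.96% and 7.68%), against 2.42% and 3.2% of all regions, with a median of -0.01 against 0.02 over all regions. The lower count was 17 without SMARCD2 replicate 1 and 8 without replicate 2, the higher count 22 and 21, and with the clone as the unit both were 0. Here too the share called lower varied with level, from 19.4% of members with at least 10 CPM in wild-type replicates 5 and 6 to 1.6% under 4 CPM. The lowest values were at chr1:170637457-170637958, with 0.192 and 0.682 CPM against panel means of 1.39 to 3.74 CPM with a median of 2.27 (log2 fold change -2.32), and at chr18:14905218-14905874, with 0.576 and 0.78 CPM against 0.639 to 4.73 CPM with a median of 3.11 (-1.86). At the second the lowest panel mean lay between the 2 SMARCD2 libraries. At chr11:58611738-58613209 SMARCD2 loss gave 2.69 and 4.19 CPM against panel means of 6.32 to 28.5 CPM with a median of 12.9, a log2 fold change of -1.82 (adjusted p = 3.46e-11, SE 0.22) by edgeR. PBRM1, BRD7 and PHF10 loss lowered this member too, to 5.68 and 5.61, 7.43 and 5.94 and 4.15 and 4.85 CPM. In the other direction, chr4:111544093-111544677 held 38.6 and 32.8 CPM without SMARCD2, and chr11:104250917-104251591 held 7.77 and 7.8 CPM against panel means of 0.841 to 6.01 CPM with a median of 2.73.

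The direct test of SMARCD2 against SMARCD1 knockout called 31 members lower and 50 higher without SMARCD2 (6.61% and 10.7%), against 3.25% and 3.16% of all regions. The lower count was 17 and 16 without SMARCD2 replicate 1 or 2 and 19 without SMARCD1 replicate 2, and the higher count 31 to 35 without any 1 of these 4 libraries. SMARCD1 loss had the lowest median member level of the panel, at 4.32 and 4.08 CPM.

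ARID2 knockdown in wild-type cells was compared with the same control libraries as the ARID2 knockout. With ARID2 knockdown in wild-type cells the median member held 4.62 and 5.64 CPM, which overlaps the 5.46 and 5.58 CPM of the control knockdown. Called members numbered 0 in both directions by edgeR and by DESeq2, as did called regions in all (0%), and 55 members had an unadjusted p under 0.05 (11.7%, against 4.22% of the eligible regions). The median log2 fold change was -0.24, against -0.02 over all regions, with 323 of 469 fitted changes below 0 (68.9%, against 54.0% of the eligible regions). At chr2:219725484-219726116, the third lowest member of the rule, ARID2 knockdown gave 8.31 and 10.3 CPM against 19.2 and 19.1 with the control, and the ARID2 knockout 3.31 and 7.79. The knockdown libraries lay between the knockout and the control at this region, with an adjusted p of 0.988 by edgeR. At chr21:22033472-22035322 ARID2 knockdown gave 44.6 and 30.3 CPM, on both sides of the control libraries. How far ARID2 fell in the knockdown was not measured here. In SMARCA4 knockout cells ARID2 knockdown called 0 members and 0% of all regions by edgeR, and 0 members by DESeq2, with 26 members at an unadjusted p under 0.05 (5.54%, against 4.65% of the eligible regions) and a median of -0.13.

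SMARCA4 knockdown in wild-type cells called 49 members lower and 2 higher (10.4% and 0.426%), against 4.96% and 0.773% of all regions, with a median of -0.35 against 0.06 over all regions. Larger shares were called lower in the regions lost without both ARID2 and ARID1A (40.5%) and without ARID1A only (27.5%). The count of lower members was 17 to 19 and that of higher members 0 or 1 when any 1 of the 4 libraries was left out. The median member held 3.68 and 4.76 CPM, below the 5.46 and 5.58 CPM of the control. The members with the largest drop were chr11:98259259-98259834, where the knockdown gave 0.291 and 0.705 CPM against 4.05 and 5.83, and chr13:67129457-67130067, where it gave 0.776 and 0.705 against 3.7 and 8.24. Their log2 fold changes were -3.42 and -2.95, and the groups did not overlap in either region. The 2 members called higher were chr4:58281430-58282008, at 4.56 and 5.64 CPM against 1.59 and 1.77, and chr5:135256516-135257577, at 15.2 and 10.8 against 5.28 and 5.58. Of the 49 lower members, 46 were also called lower in the SMARCA4 knockout against the panel, which uses other libraries (93.9% of the 49 and 22.4% of the 205). Both comparisons concern SMARCA4, and the overlap over all regions is not given here. The share therefore cannot be read as particular to the members.

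Knockdown of both SMARCA4 and ARID2 called 47 members lower and 3 higher (10.0% and 0.64%), against 4% and 0.618% of all regions. It called 35.1% of the regions lost without both ARID2 and ARID1A lower and 24.6% of those lost without ARID1A only. The median of the members was -0.32, the median member held 3.87 and 4.69 CPM, and leaving out any 1 of the 4 libraries gave 11 to 19 lower and 0 to 3 higher members. The double and the SMARCA4 knockdown share their control libraries. At chr6:104373163-104373770 the double knockdown gave 2.14 and 1.67 CPM, the SMARCA4 knockdown 2.04 and 3, the ARID2 knockdown 8.41 and 8.22 and the control 11.3 and 12.7. The double knockdown and the SMARCA4 knockdown overlapped at this region and both lay below the other groups. At chr18:37586482-37587187 the double knockdown gave 1.32 and 2.01 CPM, the SMARCA4 knockdown 2.23 and 3.88 and the ARID2 knockdown 3.49 and 3.55, against 8.28 and 8.74 in the control. All 3 knockdowns were below the control there, and those with SMARCA4 were called while the ARID2 knockdown had an adjusted p of 0.988 by edgeR.

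SMARCA4 knockout cells with control knockdown had a median member level of 3.95 and 4.51 CPM. Against wild type 81 members were called lower and 10 higher (17.3% and 2.13%), against 8.26% and 1.49% of all regions, with a median of -0.36. The share called lower was 61.0% in the regions lost without both ARID2 and ARID1A and 46.0% in those lost without ARID1A only. Without SMARCA4 knockout replicate 1 or 2 the count of lower members was 34 and 35, and without either wild-type replicate it was 48. The higher count was 5 without SMARCA4 knockout replicate 2, 2 without any 1 of the other 3 libraries, and 4 by DESeq2. The strongest drops were at chr6:104373163-104373770, where the SMARCA4 knockout held 1.56 and 0.683 CPM (log2 fold change -3.43), and at chr7:147804404-147805344, where it held 2.87 and 2.05 against 19.6 and 25.6 in wild type (-3.23). The largest rises were at chr3:68981452-68982081, with 19.7 and 26.4 CPM against 5.99 and 5.58, and at chr21:16288723-16289543, with 13.9 and 14.7 against 3.35 and 5.2. Both regions were also called higher in the SMARCA4 knockout against the panel, as were 8 of the 10 members called higher here. Of the 81 lower members, 76 were called lower in that comparison and 1 higher. For these comparisons, too, the overlap over all regions is not given here.

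In cells that already lacked ARID2, few members were called after SMARCA4 knockdown, and few regions in all. The median member held 3.17 and 4.06 CPM with the SMARCA4 knockdown and 3.46 and 4.71 CPM with the control, and these ranges overlap. Members called numbered 1 lower and 0 higher (0.213% and 0%), against 0.139% and 0.0556% of all regions. By edgeR 34 had an unadjusted p under 0.05 (7.25%, against 10.5% of the eligible regions). The 1 member was chr6:104373163-104373770, at 1.87 and 1.5 CPM against 5.87 and 8.88, with a log2 fold change of -1.97 (adjusted p = 0.0337, SE 0.46) by edgeR, and it was lost as a call without any 1 of the 4 libraries. The median log2 fold change of the members was -0.02, against -0.35 for the same knockdown in wild-type cells. The difference between these effects, tested as an interaction, called 0 members and 0% of all regions by edgeR and 0 members by DESeq2. Its median was 0.30 in the members and 0.05 over all regions, with 52 members at an unadjusted p under 0.05 (11.1%, against 5.18% of the eligible regions). In the regions lost without both ARID2 and ARID1A the medians were -0.51 in ARID2 knockout cells and -1.12 in wild-type cells. In the 3938 regions lost without ARID1A only they were -0.46 and -0.79, and the interaction median was 0.35. The members and the regions lost without both were chosen for low values without ARID2. The regions lost without ARID1A only were not. A low value without ARID2 left less accessibility to lose in ARID2 knockout cells. The part of this in the medians was not tested.

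The members were scattered over the autosomes. The median gap between neighbouring members on a chromosome was 3.79 Mb, 23 of 447 neighbouring pairs were under 100 kb apart and 6 under 10 kb. No member lay in a run of 5 or more successive regions that were all lost without ARID2, and 39 other regions did. Members made up 1.15% of the eligible regions of chromosome 21 (12 of 1041), 0.667% of chromosome 18 (18 of 2700) and 0.19% of chromosome 19 (6 of 3159), against 0.416% over all autosomes. The regions lost without both ARID2 and ARID1A also had their highest share on chromosome 21, at 2.21%. The densest 500 kb window held 4 members, on chromosome 10: chr10:82116193-82117416, chr10:82142731-82143256, chr10:82167885-82168566 and chr10:82615098-82615666. Their log2 fold changes in the ARID2 knockout with control knockdown were -0.07, -0.20, -0.47 and -0.17, and none was called. Members were 669 base pairs long at the median, against 659 for all eligible regions, and their median level was 5.53 CPM in wild-type replicates 5 and 6, against 4.25 CPM.

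**Figure D5:**
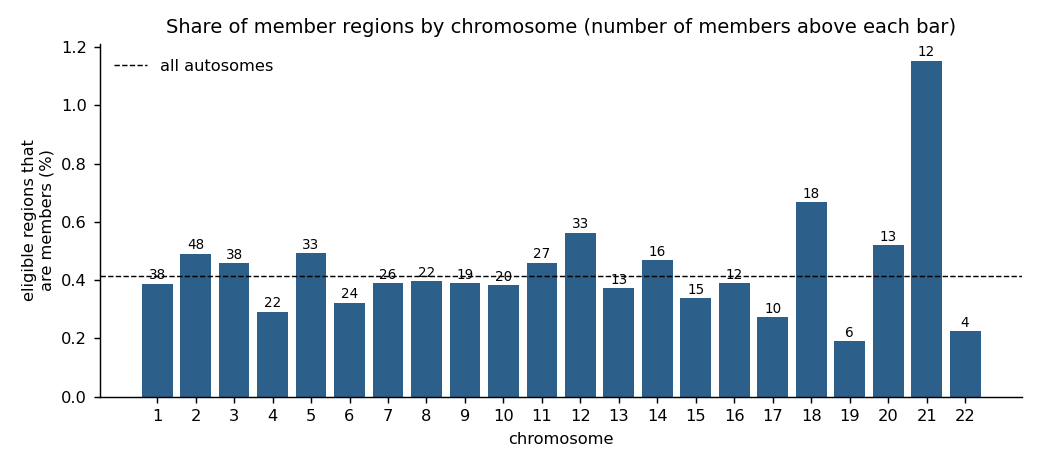
Percentage of the eligible autosomal regions of each chromosome that are members, with the number of members above each bar and the share over all autosomes, 0.416%, as a dashed line. Chromosome 21 has the highest bar with 12 members and chromosome 19 the lowest with 6.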

How the data were processed

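Accessibility was analysed in 72 of the 74 listed libraries. Wild-type replicates 3 and 4 match no column and were not analysed here, and 2 columns that match no listed library were left out. The deposited values are unscaled whole read counts for each region. The build is hg19, and MACS2 2.1.1.20160309, Picard 1.118 and Bowtie2 2.2.4 were used, per the submitters' processing notes. How regions were merged and reads counted is not given in the sources used here, nor whether coordinates start at 0 or 1, so they are printed as deposited. Neither an hg19 sequence nor its annotation was used here, so regions are given without genes or sequence.

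CPM are counts per 1000000 counts of the library. The members and all lists and tests were chosen with earlier results of these data known. Tests are 2-sided and used edgeR 4.0.16 in R 4.3.3 (quasi-likelihood, TMM scaling, default filter), with Benjamini-Hochberg adjustment over all regions tested. The knockout fit held 40 libraries of 20 clones, none of which entered the rule, and had 20 residual degrees of freedom. The knockdown fit held 16 libraries and had 8. Counts summed per clone were used for PBRM1, BRD7 and PHF10 as 1 group, with 15 residual degrees of freedom over 17 clones. DESeq2 1.42.0 was an alternative, beside other scaling, filters, references, the replicate number as a block and leaving out libraries. The fits were tested on simulated data.

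Named regions are the 6 members lowest in the rule's ARID2 difference, those nearest its limits, the 8 lowest without overlap in the ARID2 knockout with control knockdown, up to 3 lower and 2 higher per knockout against the panel, up to 2 each way per other knockdown comparison, the 3 highest without SMARCA4 among those lower without ARID2, and those of the densest 500 kb window. Reads carry no molecular identifiers, so the floor of 3 counts covers counting error only.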

Additional observations from a re-analysis of the deposited data

Results flagged for a closer look

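In 3 named members, 1 of the 4 wild-type libraries stood apart from the other three by Dixon's test, which compares the gap to the nearest library with the whole range. At chr6:129203596-129204833 the gap was 0.88 of the range, with replicate 1 at 22.5 CPM and the others between 18.1 and 18.7 CPM. At chr12:116796677-116797298 it was 0.858, with 1 library at 14 CPM and the others between 13.1 and 13.2 CPM. At chr21:16288723-16289543 it was 0.831, with 1 library at 3.64 CPM and the others between 4.91 and 5.17 CPM. Chance alone flags about 1 in 20 groups of like libraries, and 41 members were examined. The 4 wild-type libraries are not such a group. Some of them, replicate 1 included, helped to choose the members, and the others belong to the smaller set of knockout libraries. The rate of 1 in 20 therefore cannot be applied here, and the flags only describe the values.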

How the results depend on the processing

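The number of members was 125 with a pseudocount of 2, 226 with an ARID1A limit of 0, 807 with a limit of -0.6, 293 with a wild-type floor of 4 CPM, and 471 to 1830 when 1 library of the rule was left out. Against wild-type replicates 1 and 2, which entered the rule, the members called lower were 33 for PBRM1, 27 for BRD7, 15 for PHF10 and 5 for SMARCD2. Against replicates 5 and 6, which did not enter it, they were 105 for PBRM1, 95 for BRD7, 73 for PHF10 and 74 for SMARCD2. Replicates 5 and 6 belong to the second set and these knockouts to the main set, so the knockout and the set cannot be told apart there. The shares of all regions called against these references are not given here. With the clone as the unit the members called lower were 1 for PBRM1 and 0 for BRD7, PHF10 and SMARCD2. DESeq2 called 11 members lower for PBRM1, BRD7 and PHF10 as 1 group. Leaving out 1 library or panel clone gave 25 to 76 for PBRM1, 22 to 68 for BRD7, 9 to 38 for PHF10, 179 to 218 for SMARCA4, 8 to 43 for SMARCD2, 15 to 17 for PBRM1 against BRD7, 16 to 25 for SMARCD2 against SMARCD1, and 0 to 1 for the 3 PBAF clones together. In the knockdown table it gave 10 to 23 for the ARID2 knockout, 17 to 19 for the SMARCA4 knockdown, 11 to 19 for the double knockdown, 34 to 48 for the SMARCA4 knockout, and 0 to 0 for the SMARCA4 knockdown in ARID2 knockout cells. These settings leave fewer libraries, and the cause of the other changes was not tested. With the replicate number as a block, the lower members in the knockdown table were 127 for the ARID2 knockout, 90 for the SMARCA4 knockdown, 84 for the double knockdown, 111 for the SMARCA4 knockout and 5 for the SMARCA4 knockdown in ARID2 knockout cells, and the counts against the panel stayed within 1.5 times. The labels do not say that a number pairs libraries. The deviations of same-numbered libraries correlated at 0.069 to 0.38 over the 28 pairs of knockdown groups and at -0.12 to 0.15 in the knockout fit. Against wild-type replicates 5 and 6 the changes at chr4:111544093-111544677 without SMARCA4 (-0.112) and at chr21:22033472-22035322 without PBRM1 (-0.607) and without SMARCA4 (-0.379) had the opposite sign from those against the panel. Of 28 calls named against the panel, 23 were lost with the clone as the unit. RLE scaling and no filter kept every count within 1.5 times. Of the 187 members under 4 CPM, 0 were called in the ARID2 knockout and their median was -0.09. The part of depth in this was not tested.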
